A study of Physcomitrium patens with 3 samples.

Results

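The loci described here were the nuclear loci of 30 bp or less in a list of places where double-stranded RNA reads were counted in the moss Physcomitrium patens. A locus was a member when it lay on a scaffold numbered below 500 and spanned 1 to 30 bp, both ends included. No read count entered this choice. There were 28193 such loci among the 38566 nuclear loci on these scaffolds (73.1%) and among 39975 loci in all (70.5%). They lay on 485 scaffolds, with 1 to 334 members per scaffold and a median of 42. Together they covered 484654 bp, which was 17.3% of the bp covered by the nuclear loci of these scaffolds. Another 937 loci of this length lay on scaffolds numbered 500 and above and 6 on organelle genomes, and these were not members.

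The RNA came from 10-day-old protonemata, the branching filaments that moss spores grow into, of wild type, of an rdr2 mutant and of an rdr6 mutant, untreated and grown on the same ammonium tartrate medium under long days. Each genotype had 1 library. Differences were therefore not checked against replicates, genotypes were not tested against each other, and the words higher and lower compare 3 single libraries. The labels give the genotypes without an allele, a line or a number of plants, and do not say how many rounds of ribosomal RNA depletion each library had. The table deposited for rdr2 is named for a different rdr number, and the sample's label was used.

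RNA-dependent RNA polymerases copy single-stranded RNA into double-stranded RNA, which Dicer enzymes cut into small RNAs. In Arabidopsis, RDR2 makes the precursors of the heterochromatic small interfering RNAs that direct DNA methylation to transposons and repeats. Arabidopsis RDR6 copies transcripts that a microRNA has cut, and the double strands give phased trans-acting small interfering RNAs. Before sequencing here, RNA was depleted of ribosomal RNA and digested with a nuclease that removes single strands, so that reads are taken to stand for RNA that was protected as a double strand. In whole tissue, less double-stranded RNA per cell and fewer cells that hold it cannot be told apart. The loci carry cluster numbers and no gene names, so the reads of the RDR2 and RDR6 genes themselves could not be looked up, and the position of a locus relative to exons, introns and UTRs was not analysed here. The sources used here do not give how reads were assigned to loci shorter than a read, or where reads with several matching places were put. Strand is not given either, and both strands are counted together.

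The library totals behind the deposited reads-per-million (RPM) values were 6992264 reads in wild type against 9703589 in rdr2 and 9346065 in rdr6, of which 84.8%, 89.6% and 86.4% fell in loci. A single read was worth 0.143 RPM in wild type compared with 0.103 in rdr2 and 0.107 in rdr6. A count of 0 allows up to 3 reads, or 0.429, 0.309 and 0.321 RPM. The 1% of loci with most reads differed in weight between the libraries. Outside it lay 151014 reads in wild type and 81150 and 214971 in the rdr2 and rdr6 libraries, so that the rdr2 library was the deepest in total and the shallowest at the other loci. Intervals of ratios and shares are exact 95% Clopper-Pearson intervals. They cover counting error only, and PCR copies of 1 molecule can count more than once.

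The members were not spread evenly over the 30 possible lengths. The most common length was 15 bp with 4643 loci, followed by 16 bp with 3470, 17 bp with 2614 and 18 bp with 2014. These lengths made up 45.2% of the members, and the median was 17 bp. A second rise stood at 23 bp with 1641 loci and 24 bp with 1572, between 1143 loci of 22 bp and 678 of 25 bp. Loci of 14 bp or less numbered 5413 (19.2%), from 274 loci of 2 bp to 791 of 14 bp, and 347 loci were a single base pair long. The limit of 30 bp fell in a sparse part of the distribution, with 334 loci of 29 bp, 288 of 30 bp, 204 of 31 bp and 203 of 32 bp. At least 1 read was found at 24.7%, 15.6% and 29.2% of the 30 bp loci in wild type, rdr2 and rdr6, and at 26.5%, 22.5% and 36.3% of the 31 bp loci.

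Most members had no read in these libraries. Of the 28193, 18960 (67.3%) were at 0 in all 3 libraries, 8554 had 1 to 19 reads over the 3, and 679 (2.41%) had 20 or more. In wild type 5621 members had at least 1 read (19.9%, interval 19.5 to 20.4). The rdr2 library had reads at 3499 (12.4%, 12.0 to 12.8) and the rdr6 library at 6806 (24.1%, 23.6 to 24.6). Detection was thus lowest in rdr2 and highest in rdr6, which is also the order of the reads outside the 1% of loci with most reads. With each library thinned to that number of reads in rdr2, the expected shares were 14.3% in wild type against 12.4% in rdr2 and 14.7% in rdr6. Thinned to the smallest library total instead, they were 19.9%, 10.3% and 21.1%. Longer nuclear loci on the same scaffolds were detected more often. The shares in wild type, rdr2 and rdr6 were 42.7%, 35.2% and 46.5% at 31 to 200 bp, and 74.0%, 68.7% and 73.9% at over 200 and up to 1000 bp. Above 1000 bp they were 93.9%, 85.4% and 96.3%.

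Detection followed length within the members. In wild type and rdr6 it peaked at 18 bp, where reads were found at 32.1% (30.04 to 34.2) and 41.7% of loci (39.5 to 43.9), against 16.3% in rdr2 (14.7 to 18.02). The rdr2 library had its highest share, 20.7% (16.4 to 25.4), at 29 bp. All 3 libraries were lowest at 24 bp, a length of the second rise, with 7.19% (5.96 to 8.58), 4.01% (3.09 to 5.10) and 7.51% (6.25 to 8.92). The loci of 24 bp were therefore numerous in the list and seldom read, and 88.6% of them had no read in any library. Among loci of 15 to 18 bp the shares were 26.1%, 15.5% and 32.2%, and among those of 21 to 25 bp 10.3%, 6.36% and 11.5%. The shortest loci, 1 to 10 bp, stood between them with 16.3%, 11.5% and 19.9%. After thinning to equal reads outside the top 1%, the genotypes lay closer at 1 to 10 bp (11.3%, 11.5% and 11.4%) than at 15 to 18 bp (18.8%, 15.5% and 19.6%). The 21 to 25 bp loci were then at 7.32%, 6.36% and 7.03%. In classes of 11 to 15 bp and 16 to 20 bp the unthinned shares were 21.8%, 14.1% and 26.8%, and 25.9%, 14.9% and 31.6%.

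**Figure D1:**
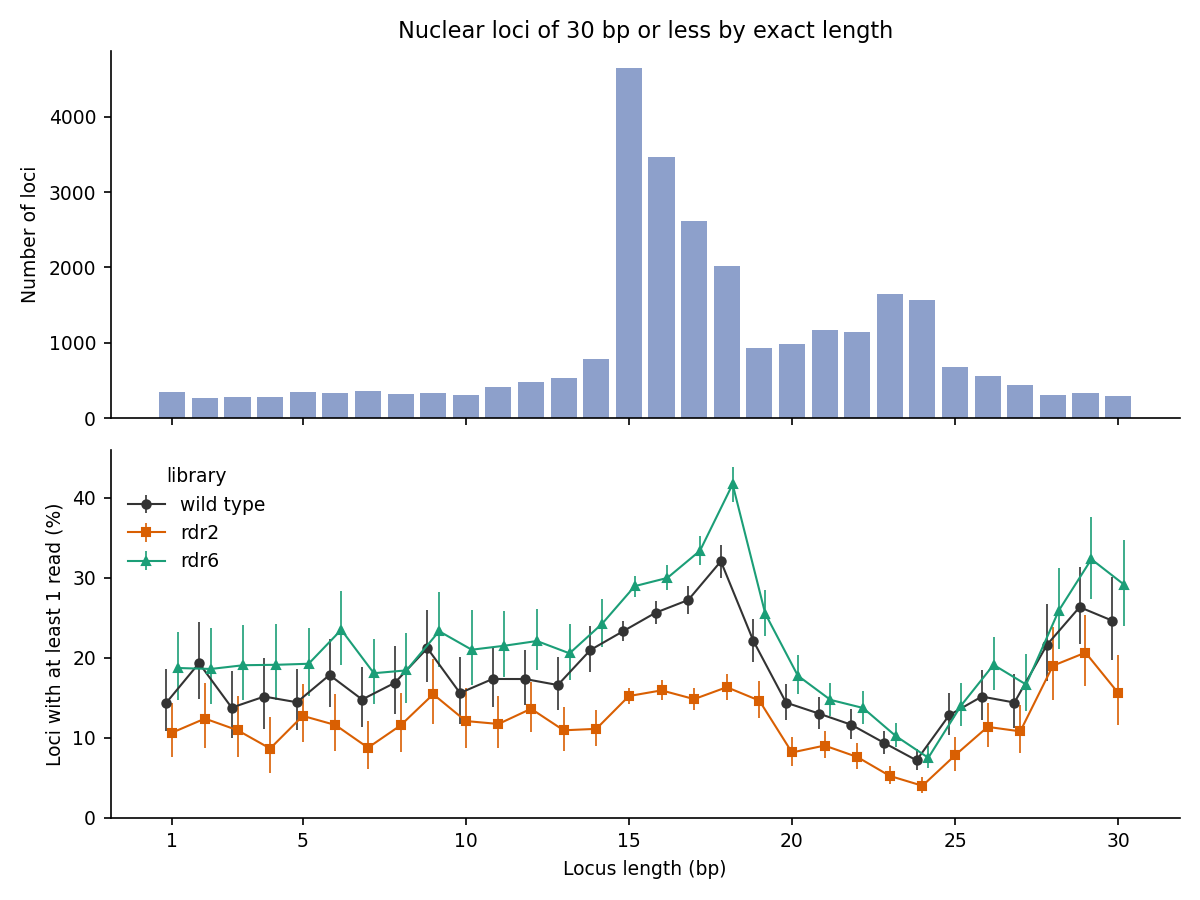
The upper panel shows the number of nuclear loci of each exact length from 1 to 30 bp, and the lower panel the share of them with at least 1 read in each library (percent, bars are exact 95% intervals for counting error). Loci are most numerous at 15 bp and again at 23 and 24 bp, whereas detection peaks at 18 bp in wild type and rdr6 and is lowest at 24 bp in every library.

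Reads at a member were often found in only some of the libraries. Of the members, 1972 were read in all 3 libraries, 1835 in wild type and rdr6 but not rdr2, 331 in wild type and rdr2 only, and 583 in rdr2 and rdr6 only. A further 1483 were read in wild type alone, 613 in rdr2 alone and 2416 in rdr6 alone. Most of these last loci rested on 1 read: 78.4% of those in wild type alone, 81.9% in rdr2 alone and 71.5% in rdr6 alone. Such a locus is not shown to be absent from the other libraries at this depth. The patterns were counted for members only, so no share over longer loci stands beside them. The rdr2 library also had the fewest reads outside the 1% of loci with most reads. Loci with 20 or more reads were mostly read everywhere, with 606 of the 679 detected in all 3 libraries and 65 in wild type and rdr6 but not in rdr2.

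The members held few of the reads. Their summed count was 48236 in wild type (0.814% of locus reads, 0.807 to 0.821). It was 30808 in rdr2 (0.354%, 0.350 to 0.358), the lowest, and 79963 in rdr6 (0.990%, 0.983 to 0.997). In RPM this was 6898, 3175 and 8556. Summed over members, RPM was 2.17-fold lower in rdr2 than in wild type (2.14 to 2.20) and 1.24-fold higher in rdr6 (1.23 to 1.25). The rdr2 direction turned with the scaling. The ratio of the rdr2 sum to that of wild type was 0.460 in RPM, 0.919 with TMM factors (which trim extreme loci), 1.07 with median-of-ratios size factors and 1.19 when scaled to the reads outside the 1% of loci with most reads. The RPM sum in rdr2 was 3.79-fold lower for nuclear loci of 31 to 200 bp, 2.88-fold lower for those of over 200 and up to 1000 bp and 2.01-fold higher for those above 1000 bp. Detected members had a median of 1 read in wild type against 1 in rdr2 and 2 in rdr6. The 679 loci with 20 or more reads held 80.3%, 83.3% and 82.3% of the member reads. A few members dominated each sum: 49 held 50% of it in wild type, against 22 in rdr2 and 35 in rdr6. The 15 to 18 bp loci had 3881 RPM in wild type compared with 1869 in rdr2 and 4867 in rdr6, the largest part of the members' RPM in each library.

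The member with most reads in wild type and in rdr6 was Cluster_33978, a locus of 29 bp on scaffold_306 (138248 to 138276). It had 4078 reads in wild type and 1662 and 7592 in the rdr2 and rdr6 libraries, which is 583, 171 and 812 RPM. Its nearest locus, 671 bp away, is 112 bp long and had 7, 3 and 11 reads. Cluster_376 (scaffold_1, 4762781 to 4762801, 21 bp) had 1538, 686 and 3608 reads, and its nearest locus, 13870 bp away, had none. Both loci were high in wild type and rdr6 and lower in rdr2, and both stood beside loci with few or no reads. Cluster_14014 (scaffold_63, 1198870 to 1198886, 17 bp) had 1460, 1379 and 3541 reads, and Cluster_11544 (scaffold_48, 623843 to 623865, 23 bp) had 963, 770 and 2099. In RPM these were 1.47-fold (1.36 to 1.58) and 1.74-fold (1.58 to 1.91) lower in rdr2 than in wild type, less than the sum of all members. Cluster_6913 (scaffold_24, 2289457 to 2289472, 16 bp) had 986, 440 and 2745 reads, and its nearest locus, 13937 bp away, had none. These named loci had rdr6 levels 1.39-fold to 2.08-fold those of wild type in RPM. Cluster_368, described below, had more wild-type reads (1208) than Cluster_6913 and was not raised in rdr6. Its rdr6 level was 0.985-fold that of wild type (0.914 to 1.06). The rdr2 library had other leading members. Cluster_37138 (scaffold_403, 152492 to 152513, 22 bp) had 429 reads in wild type against 1788 in rdr2 and 457 in rdr6, which is 61.4, 184 and 48.9 RPM. Its rdr2 level was 3.003-fold that of wild type (2.70 to 3.34) and missed the ratio of 4 used below. These directions hold on the RPM scale. With the libraries scaled to the reads outside the 1% of loci with most reads, the log2 ratio of rdr2 to wild type moved from -0.56 to 0.81 at Cluster_14014 and from -0.80 to 0.57 at Cluster_11544. At Cluster_33978 and Cluster_376 it moved from -1.77 to -0.40 and from -1.64 to -0.27, still below wild type, and at Cluster_37138 from 1.59 to 2.95, past a ratio of 4.

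Members lay apart from other loci, and by different distances at different lengths. The median gap to the nearest locus of any length was 1793 bp, against 512, 372 and 309 bp for nuclear loci of 31 to 200 bp, over 200 to 1000 bp and over 1000 bp. Of the members, 10.99% had a neighbour within 300 bp, 38.9% within 1 kb and 82.0% within 10 kb, and 1 was the only locus of its scaffold. No gap was under 112 bp. Only 14 members had a gap under 200 bp, whereas 1656 had one of 200 to 249 bp and 1391 one of 250 to 299 bp, so the spacing begins sharply at 200 bp. The largest gap was 118650 bp. Loci of 15 to 18 bp were the most isolated, with a median gap of 4528.5 bp. The other classes had medians from 676 bp at 26 to 30 bp to 1096 bp at 19 to 20 bp, with 884 bp at 21 to 25 bp. Among members with a neighbour within 1 kb, 23.8% were 15 to 18 bp and 30.2% were 21 to 25 bp long. Among those with none within 10 kb the shares were 68.7% and 12.7%. The common 15 to 18 bp loci thus stood mostly without a near neighbour, and the 21 to 25 bp loci were the largest class where loci were close. The nearest locus was itself 30 bp or shorter for 76.9% of members.

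Members close to another locus were read more often when that locus had a read than when it had none. With a neighbour within 1 kb that had a read in the same library, 39.4% of members were detected in wild type (37.4 to 41.3), 30.2% in rdr2 (28.1 to 32.3) and as many as 47.1% in rdr6 (45.2 to 49.01). Beside a neighbour without a read the shares were 10.1% (9.44 to 10.7), 7.20% (6.68 to 7.75) and 10.6% (9.91 to 11.3). With the nearest locus over 10 kb away, they were 24.1% and 23.7% in wild type and 32.5% and 28.9% in rdr6. In rdr2 they were 152 of 1009 and 570 of 4071 members. The state of the neighbour therefore went with that of the member at short distance in each library, and much less over 10 kb. Over any library, 54.4% of 21 to 25 bp loci within 1 kb of a read locus had a read, against 9.19% beside an unread one. For 15 to 18 bp loci these shares were 54.3% and 23.0%.

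**Figure D2:**
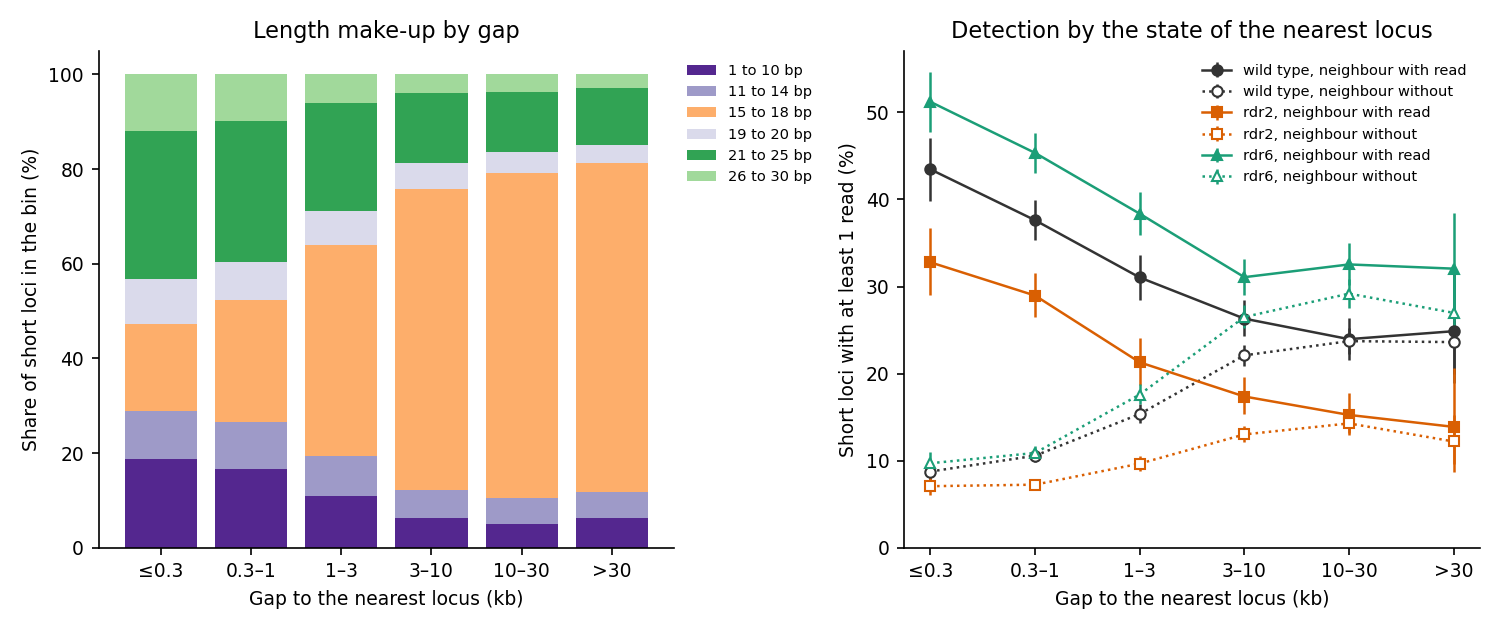
The left panel shows the make-up by length of the short nuclear loci in bins of the gap to the nearest locus (percent of loci per bin), and the right panel the share of them with at least 1 read when that neighbour did or did not have a read in the same library (percent, bars are exact 95% intervals). Loci of 15 to 18 bp take most of the bins beyond 3 kb, and the filled and open symbols lie far apart up to 3 kb and close together beyond 10 kb.

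Of the members that followed each other at gaps of 1 kb or less, a smaller share was read than of single ones. Of the members, 19892 stood in no such run, and 8301 stood in 3458 runs of 2 or more. Of the members in runs of 2 or more, 24.7% had a read in any library, against 36.1% of single members. The 114 runs of 5 or more held 640 members, of which 19.1% had a read. Their make-up differed too, with 16.4% of 15 to 18 bp and 32.5% of 21 to 25 bp, against 53.9% and 18.4% among single members. In all runs of 2 or more these shares were 24.4% and 30.6%. The longest run, Cluster_11839 to Cluster_11848 on scaffold_49 (2173951 to 2177643), holds 10 members of 6 to 24 bp and had no read. The run from Cluster_5162 to Cluster_5170 on scaffold_17 (1811926 to 1816228) holds 9 members, 5 of them 21 to 25 bp long, and also had none. Of the 6 runs of 8 members, the 3 with most reads are named. The run from Cluster_36707 to Cluster_36714 on scaffold_385 (312829 to 315574) had 7 reads in wild type against 10 in rdr2 and 19 in rdr6. Cluster_26350 to Cluster_26357 on scaffold_179 (443894 to 446966) had 8, 5 and 6 reads, and Cluster_20805 to Cluster_20812 on scaffold_115 (200159 to 202806) had 3, 6 and 4. The other 3 had 4 reads, 0 and 0. Sums of this size were not compared between libraries.

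Ratios between libraries were taken only for the 679 members with 20 or more reads over the 3 libraries. These were 62.3% of 15 to 18 bp and 12.8% of 21 to 25 bp, and 24.7% of them had a neighbour within 1 kb, against 42.1% of the members with no read. A locus met the size rule when its RPM ratio was at least 4 and the interval of the ratio lay wholly beyond 2-fold. Log2 ratios for medians had a pseudocount of 0.5 reads. A locus with few or no reads in both other libraries could pass the read minimum only through 1 library where it was high. The rule was applied to all 3763 loci of the list with 20 or more reads. The share of those that met it is given beside the counts over all 679 members, in RPM and with each scaling.

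The first comparison asked which short loci had less double-stranded RNA, or more, in rdr2 than in wild type. On the RPM scale most were lower in rdr2. Of the 679 members, 209 (30.8%) met the size rule as lower, where 26.2% of all examined loci did, and 12 (1.77%) met it as higher, where 0.505% of all did. The median log2 ratio of members was -1.70 (-1.78 to -1.55), against -1.41 over all examined loci. The order of these shares turned with the read level. At 20 to 49 reads 21.8% of members and 9.95% of longer nuclear loci were lower, and from 50 to under 200 reads 42.2% and 20.96% were. At 200 or more reads it was 36.4% of 107 members against 48.9% of 722 longer loci, with median log2 ratios of -1.62 and -1.95. These values depended on how the libraries were scaled. The lower and higher members were 89 and 35 with TMM factors, 70 and 43 with median-of-ratios size factors, and 56 and 50 with the reads outside the 1% of loci with most reads. With TMM factors that was 13.1% and 5.15% of members, against 8.88% and 2.10% of all examined loci. With size factors it was 10.3% and 6.33% against 6.94% and 2.82%. With the last scaling it was 8.25% and 7.36% against 5.77% and 3.45%. The share lower among members that met the rule thus went from 94.6% to 71.8%, 61.9% and 52.8%. The median over all loci moved to -0.41, -0.19 and -0.04 in the same order. A scaling adds 1 constant to every log2 ratio of a comparison, so it leaves the distance between these medians as it is. The 10 highest and 10 lowest members, ranked here by whichever interval bound lay closer to 1, met the rule with every one of these scalings. That outcome was largely fixed by the ranking. Each of these scalings raises every log2 ratio of this comparison, by at most 1.37, and the lowest members were picked for bounds far from 1.

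The medians differed between length classes, with wide intervals in the small ones. The median log2 ratio in rdr2 was -1.67 (-1.83 to -1.53) for 423 loci of 15 to 18 bp, -2.40 (-2.67 to -1.30) for 63 of 19 to 20 bp and -2.32 (-2.62 to -1.78) for 87 of 21 to 25 bp. It was -1.10 (-1.39 to 0.09) for 29 loci of 1 to 10 bp, -0.93 (-2.44 to -0.26) for 33 of 11 to 14 bp and -1.12 (-1.51 to -0.47) for 44 of 26 to 30 bp. Of the 21 to 25 bp loci, 81 of 87 lay below wild type in RPM. So did 909 of 1008 longer nuclear loci at 31 to 200 bp, 1424 of 1595 up to 1000 bp and 232 of 241 above. In RPM, 32 of the 87 (36.8%, against 36.1% at 31 to 200 bp) met the size rule as lower and 0 as higher. Scaled to the reads outside the top 1%, 11 met it as lower and 3 as higher, against 95 and 27 of 1008 loci of 31 to 200 bp. Longer nuclear loci had medians of -1.75 at 31 to 200 bp, -1.26 up to 1000 bp and -1.13 above. Scaled to the reads outside the top 1%, the medians of 15 to 18, 19 to 20 and 21 to 25 bp loci were -0.30, -1.03 and -0.95. Those of 1 to 10, 11 to 14 and 26 to 30 bp loci turned to 0.27 (-0.02 to 1.46), 0.44 (-1.07 to 1.11) and 0.24 (-0.15 to 0.90). These last intervals all include 0. The median of 21 to 25 bp loci was thus below 0 under both scalings. Intervals of these medians are order-statistic intervals that take loci as independent.

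**Figure D3:**
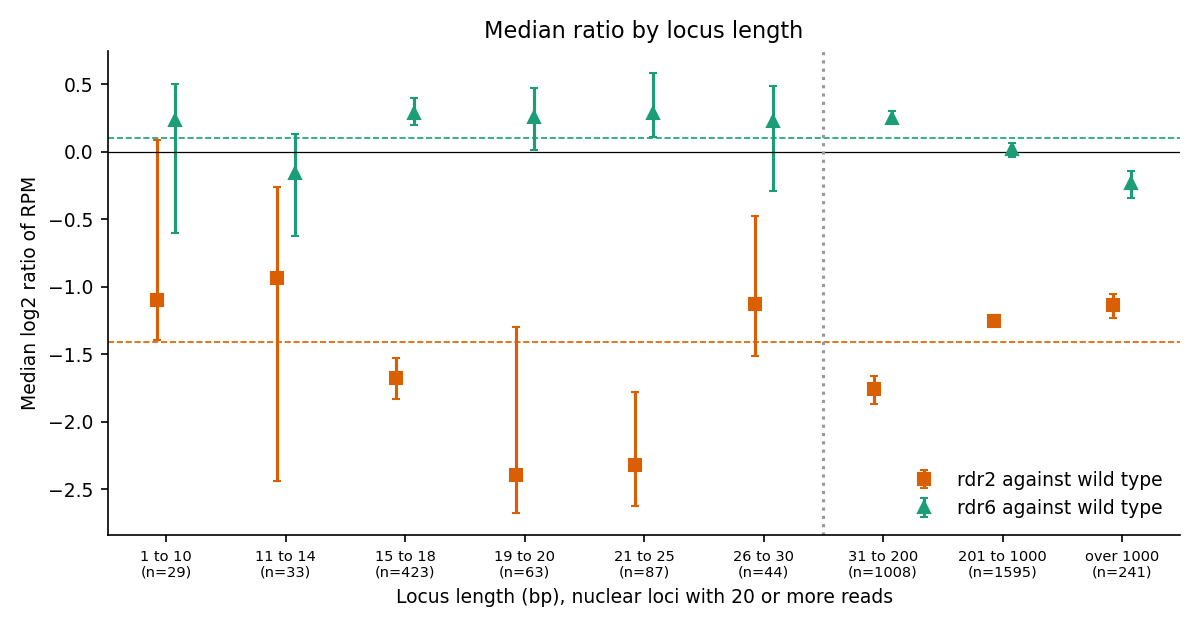
Median log2 ratio of RPM by locus length (bp) for nuclear loci with 20 or more reads, rdr2 and rdr6 each against wild type, with order-statistic 95% intervals over loci; dashed lines are the medians over all examined loci, -1.41 and 0.10, and loci right of the dotted line are longer than 30 bp. The rdr2 medians are lowest at 19 to 20 and 21 to 25 bp, and those of rdr6 stay between -0.23 and 0.29.

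The members lowest in rdr2 included loci with many reads in both other libraries. Cluster_30647 (scaffold_246, 118019 to 118046, 28 bp) had 550 reads in wild type compared with 24 in rdr2 and 1098 in rdr6, which is 78.7, 2.47 and 117 RPM. Folds here are in RPM, and scaling to the reads outside the top 1% makes each fold lower in rdr2 smaller by a factor of 2.58, and each fold higher in rdr2 larger by it. Cluster_30647 was 31.8-fold lower in rdr2 (21.2 to 50.1), a log2 ratio of -4.96 that became -3.59 with that scaling, and its nearest locus lay 17167 bp away. Cluster_7133 (scaffold_25, 2209398 to 2209420, 23 bp) had 365, 18 and 471 reads and was 28.1-fold lower (17.5 to 48.0). Cluster_368 (scaffold_1, 4665895 to 4665911, 17 bp) had 1208, 116 and 1591 reads and was 14.5-fold lower (11.9 to 17.6). In these loci the rdr2 library stood apart, and wild type and rdr6 were within 1.49-fold of each other in RPM. Cluster_24902 (scaffold_159, 443365 to 443379, 15 bp) had 57, 0 and 42 reads and Cluster_10542 (scaffold_42, 2024632 to 2024648, 17 bp) had 56, 0 and 74. With the rdr2 count set to the floor of 3 reads they were 26.4-fold and 25.9-fold lower. Folds from this floor leave out counting error in the other library. The exact upper bounds of the ratios of rdr2 to wild type were 0.048 and 0.049. The 11 bp Cluster_27985 (scaffold_201, 626564 to 626574) had 298, 4 and 261 reads, or 42.6, 0.412 and 27.9 RPM, and its nearest locus had 1 read over the 3 libraries. Cluster_6570 (scaffold_23, 957234 to 957252, 19 bp) and Cluster_35061 (scaffold_336, 25480 to 25494, 15 bp) were intermediate in rdr6. The former had 22.5, 0.515 and 4.39 RPM in wild type, rdr2 and rdr6, and the latter 22.5, 0 and 5.24.

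The 12 members higher in rdr2 included loci with many reads. Cluster_15637 (scaffold_74, 276091 to 276105, 15 bp) had the most rdr2 reads of all members, at 191 RPM, against 3.003 in wild type and 6.53 in rdr6. Its neighbour Cluster_15636, a 16 bp locus 543 bp away, had no read in any library. Cluster_3329 (scaffold_10, 2285211 to 2285227, 17 bp) had 24.6, 116 and 28.6 RPM, and 3 reads over the 3 libraries at the nearest locus, 1573 bp away. Cluster_28301 (scaffold_206, 710067 to 710082, 16 bp) had 6, 68 and 6 reads, an rdr2 level 8.17-fold that of wild type (3.56 to 23.0), with the nearest locus 31330 bp away. Cluster_15132 (scaffold_71, 77356 to 77370, 15 bp) had 9, 73 and 11 reads and was 5.84-fold higher (2.92 to 13.3). At these loci rdr2 was the high library, and wild type and rdr6 were within a ratio of 2.17 of each other. Loci of a few bases were among the higher ones. The 8 bp Cluster_32745 (scaffold_281, 116037 to 116044) had 24, 229 and 37 reads, and the 6 bp Cluster_8043 (scaffold_30, 1468921 to 1468926) had 0, 25 and 2. Cluster_30334 (scaffold_240, 588032 to 588047, 16 bp) had 0, 21 and 2 reads and Cluster_28973 (scaffold_216, 784495 to 784509, 15 bp) 0, 18 and 3. Against a floor of 3 reads in wild type, Cluster_8043, Cluster_30334 and Cluster_28973 were 6.005-fold, 5.04-fold and 4.32-fold higher in rdr2. Their exact lower bounds were smaller, at 4.53, 3.75 and 3.17.

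The states of examined neighbours are given as counts. Of the 679 members, 142 had an examined locus of any length as their nearest locus within 10 kb. Of the 48 among them that were lower in rdr2, 18 had a neighbour that was lower too (37.5%). Of the 91 that did not meet the size rule, 20 had a lower neighbour (22.0%). None of the 142 had a higher neighbour, whatever their own state. Over all examined loci, 26.2% were lower and 0.505% higher. Within 1 kb, a lower neighbour stood beside 5 of 16 lower members and 5 of 37 that did not meet the rule. Cluster_2685, 2 bp long on scaffold_8 (551414 to 551415), had 11 reads in wild type against 3 in rdr2 and 18 in rdr6, and Cluster_2686, 218 bp from it (551634 to 551648, 15 bp), had 220, 33 and 337. The libraries stood in the same order at both loci. By contrast, the 1 bp Cluster_26386 (scaffold_179, 917727) had 4, 38 and 19 reads and was 6.85-fold higher in rdr2 (2.46 to 26.4). The 635 bp locus 736 bp from it, Cluster_26387, had 14, 5 and 56 reads.

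**Figure D4:**
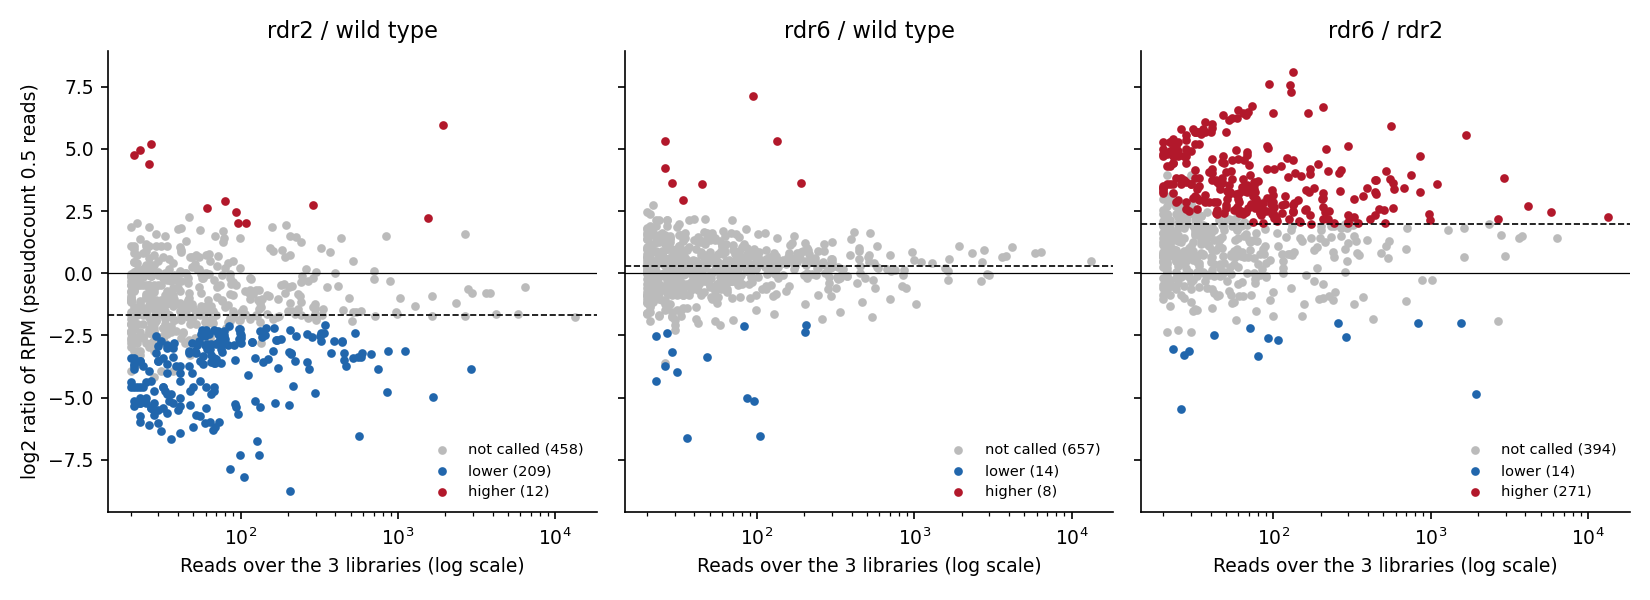
Each point is 1 of the 679 short nuclear loci with 20 or more reads, placed by its reads over the 3 libraries (log scale) and its log2 ratio of RPM in each comparison; blue and red points met the size rule as lower and higher, and the dashed line is the median of the short loci. The cloud lies below 0 for rdr2 against wild type (209 lower, 12 higher), near 0 for rdr6 against wild type (14 and 8) and above 0 for rdr6 against rdr2 (14 and 271).

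Between rdr6 and wild type, the second comparison, few short loci differed by the size rule. Of the 679 members, 14 (2.06%) were lower in rdr6, where 1.51% of all examined loci were, and 8 (1.18%) were higher, where 1.54% of all were. Both shares are near those of all loci. The median log2 ratio was 0.27 (0.20 to 0.32), against 0.10 over all loci, and 423 of the 679 lay above wild type. Among longer nuclear loci, 641 of 1008 did so at 31 to 200 bp, 811 of 1595 up to 1000 bp and 87 of 241 above. Rescaling gave 14 or 15 lower and 7 or 8 higher. Over all loci, 1.65% or 1.70% were then lower and 1.41% or 1.49% higher. By length the medians were 0.28 (0.20 to 0.40) at 15 to 18 bp and 0.29 (0.11 to 0.59) at 21 to 25 bp, and 0.25 for loci of 31 to 200 bp. They were 0.02 and -0.23 for the longer classes.

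The members higher in rdr6 had at most 14 reads in either other library. Cluster_17816 (scaffold_89, 771377 to 771396, 20 bp) had 10 reads in wild type and 8 and 174 in the rdr2 and rdr6 libraries, and Cluster_17817, 1428 bp from it (772825 to 772851, 27 bp), had 2, 3 and 40. They were 13.0-fold (6.91 to 27.6) and 14.96-fold (3.88 to 128) above wild type in rdr6. Cluster_22907 (scaffold_136, 325721 to 325735, 15 bp) was read in rdr6 alone, at 10.1 RPM from 94 reads. The nearest locus, 227 bp long and 6271 bp away, had 5, 0 and 5 reads. Cluster_29943 (scaffold_233, 282205 to 282232, 28 bp) was also read in rdr6 alone, with 26 reads. Cluster_22907 and Cluster_29943 thus passed the minimum of 20 reads through rdr6 only. Cluster_29943 was 6.48-fold higher than wild type against the floor of 3 reads, with an exact lower bound of 4.91. Its neighbour 972 bp away, Cluster_29942, had 6 reads in wild type against 3 in rdr2 and 3 in rdr6. Cluster_2815 (scaffold_8, 2028588 to 2028601, 14 bp) had 0.286 RPM in wild type against 0 in rdr2 and 14.1 in rdr6. Cluster_30274 (scaffold_239, 159061 to 159075, 15 bp) had 1, 4 and 24 reads, and Cluster_27324 (scaffold_192, 843075 to 843095, 21 bp) had 2, 7 and 25. Their ratios were 17.96-fold (2.93 to 738) and 9.35-fold (2.33 to 81.5). Cluster_16415 (scaffold_79, 853676 to 853690, 15 bp) had 0 reads in wild type compared with 14 in rdr2 and 12 in rdr6, and no longer met the size rule under TMM factors or when scaled to reads outside the top 1%.

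The members lowest in rdr6 are given with their rdr2 values, which share the wild-type library. Cluster_14768 (scaffold_68, 1200286 to 1200308, 23 bp) had 36 wild-type reads and 0 in either mutant. It was 16.0-fold lower in rdr6 against the floor of 3 reads, and the exact upper bound of that ratio was 0.081. It was the only member with 20 reads in wild type and 0 in both others, and it passed the read minimum through wild type only. The nearest locus, also 23 bp long and 1317 bp away, had no read. Cluster_36984 (scaffold_398, 151533 to 151547, 15 bp) had 29, 0 and 2 reads and was 19.4-fold lower (4.90 to 168). Cluster_15748 (scaffold_74, 1675804 to 1675824, 21 bp) had 22, 0 and 1 reads, 29.4-fold apart with bounds of 4.75 and 1214. These loci were high in the wild-type library and low in both mutant libraries. A neighbour of Cluster_15748, a 19 bp locus 2813 bp away, had 13, 49 and 16 reads and did not share that order. Cluster_20769 (scaffold_114, 1060518 to 1060539, 22 bp) had 42, 1 and 5 reads and was lower in rdr6 by a factor of 11.2 (4.45 to 36.4). The 31 bp locus 525 bp from it had 11, 23 and 1. Cluster_28775 (scaffold_214, 248656 to 248678, 23 bp) had 24, 0 and 2 reads and Cluster_29006 (scaffold_217, 559561 to 559576, 16 bp) had 23, 3 and 3. Cluster_13394, Cluster_29844 and Cluster_35223, of 15, 15 and 16 bp, had 14.9, 11.9 and 13.0 RPM in wild type, at most 0.206 in rdr2 and at most 0.321 in rdr6. Cluster_35223 lies 411 bp from a 107 bp locus with 22, 10 and 17 reads, so the neighbour kept reads in both mutant libraries.

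**Figure D5:**
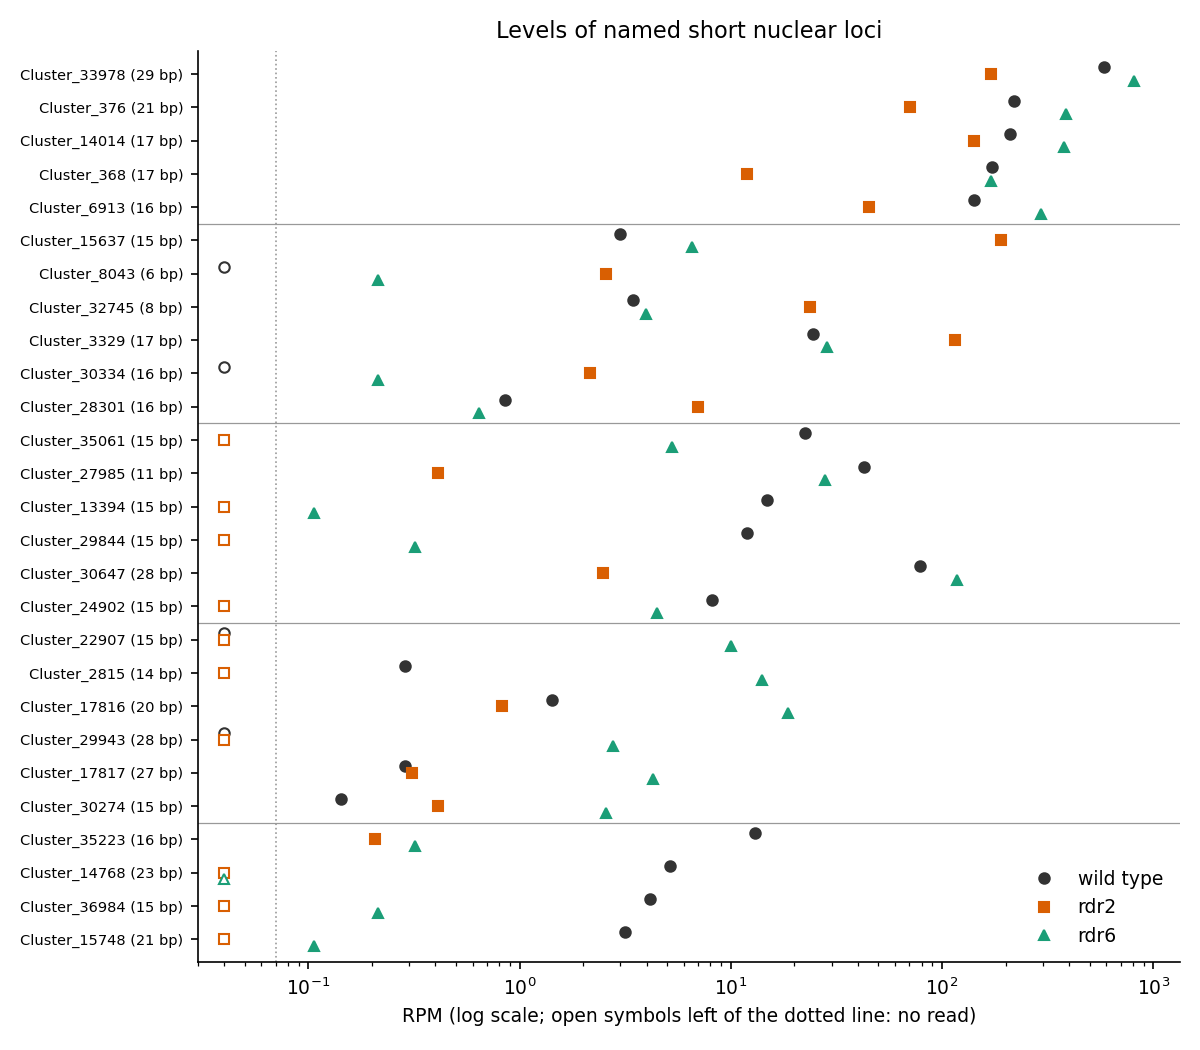
RPM (log scale) in wild type, rdr2 and rdr6 of short nuclear loci named in the text, from top to bottom those with most reads in wild type, those higher and lower in rdr2, and those higher and lower in rdr6; open symbols left of the dotted line stand for libraries without a read. Cluster_15637 is at 191 RPM in rdr2 and under 10 in the other libraries, and the bottom loci are high in wild type alone.

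The third comparison was between the mutants, without the wild-type library. Higher in rdr6 than in rdr2 were 271 members (39.9%), where 31.6% of all examined loci were, and 14 (2.06%) were lower, where 1.01% of all were. The median log2 ratio was 1.97 (1.88 to 2.15), against 1.48 over all loci. Lower and higher members were 39 and 110 with TMM factors, 45 and 87 with median-of-ratios size factors, and 52 and 72 when scaled to reads outside the top 1%. With TMM factors that was 5.74% and 16.2% of members, against 4.01% and 12.4% of all examined loci. With size factors it was 6.63% and 12.8% against 4.70% and 10.1%. With the last scaling it was 7.66% and 10.6% against 5.71% and 8.00%. The order of the shares turned with the read level here too. At 20 to 49 reads 28.1% of members and 14.1% of longer nuclear loci were higher in rdr6, and at 200 or more reads 48.6% and 55.3% were, with median log2 ratios of 1.97 and 2.27. Among the length classes of members the median in RPM was highest at 21 to 25 bp, at 2.53 (2.18 to 2.81), where 48 of 87 loci were higher in rdr6 and 0 were lower. At 1 to 10 bp it was 0.36 (-0.34 to 1.75), with 5 of 29 higher and 3 lower. Scaled to the reads outside the top 1%, the 21 to 25 bp median was 1.07, with 13 loci higher and 3 lower. The 1 to 10 bp median turned to -1.10, with 0 higher and 5 lower. Those of 11 to 14 and 26 to 30 bp loci turned from 0.99 to -0.47 and from 1.09 to -0.37. The intervals of these turned medians, -1.80 to 0.29, -1.51 to 0.99 and -0.79 to 0.47, all include 0.

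Several loci that were read in wild type and rdr6 had next to none in rdr2. Scaling to the reads outside the top 1% divides each of these RPM ratios of rdr6 to rdr2 by 2.75. Cluster_17540 (scaffold_87, 380319 to 380339, 21 bp) had 40 reads in wild type and 1 and 125 in the rdr2 and rdr6 libraries, 130-fold apart between the mutants with bounds of 22.9 and 5167. Cluster_2518 (scaffold_7, 2086921 to 2086945, 25 bp) had 110, 5 and 182 reads and was 37.8-fold higher in rdr6 (15.9 to 118). Cluster_18751 (scaffold_96, 440740 to 440754, 15 bp) had 38, 0 and 90 reads and Cluster_21033 (scaffold_117, 810533 to 810550, 18 bp) had 22, 0 and 51. Against the floor in rdr2 they were 31.1-fold and 17.7-fold higher in rdr6, with exact lower bounds of 24.8 and 13.8. Loci with the opposite order were Cluster_4086 (scaffold_13, 1186175 to 1186188, 14 bp) with 143, 557 and 134 reads, and Cluster_4501 (scaffold_14, 2971861 to 2971875, 15 bp) with 14, 82 and 12. The 5 bp Cluster_30578 (scaffold_244, 478193 to 478197) had 88, 139 and 33 reads. Its wild-type and rdr2 levels, 12.6 and 14.3 RPM, were within their interval of each other (ratio 1.14, 0.865 to 1.504), and the rdr6 level was 3.53. Cluster_21917 (scaffold_126, 637064 to 637081, 18 bp) had 4, 22 and 0 reads. Against the floor it was 7.06-fold lower in rdr6 than in rdr2, and the exact upper bound of that ratio was 0.190.

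The shortest members with 20 or more reads show that reads were listed even at single base pairs. Cluster_28903 (scaffold_215, 719857) is 1 bp long and had 125 reads in wild type against 54 in rdr2 and 149 in rdr6, which is 17.9, 5.56 and 15.9 RPM. It lies 333 bp from a 140 bp locus that had 7, 5 and 8 reads, so the single base pair had more reads than its longer neighbour in each library. Cluster_29137 (scaffold_219, 603820, 1 bp) had 17, 9 and 17 reads and the 37 bp locus 303 bp from it 0, 0 and 1. The 3 bp Cluster_763 (scaffold_2, 4003658 to 4003660) had 11, 1 and 20. Over all members of 1 to 10 bp, 71.8% had no read and 29 had 20 or more. Count triplets were seldom shared: 18 were found at more than 1 of the 679 examined members, each at 2 loci, and the largest had 56 reads over the 3 libraries. Whether loci with many reads share a repeated sequence was not tested.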

How the data were processed

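Double-stranded RNA was sequenced in 1 library per genotype. Per the file headers, the deposited tables hold, for every locus, raw read counts and the authors' RPM. Bowtie 0.12.9 and SAMtools were used, per the submitters' processing notes. The sources used here do not name the build, the locus caller or the mapping settings. Cluster names are printed without their common prefix. Count divided by deposited RPM gave the library totals, and RPM times the total, rounded, gave back the count at 100% of loci.

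Members, length classes and lists were chosen with earlier results of these data known, and the 11 to 14, 15 to 18 and 19 to 20 bp classes replaced planned ones of 11 to 15 and 16 to 20 bp. RPM ratios, with 95% intervals from the exact Clopper-Pearson bounds on the share of 1 library in the reads of both, were computed where the 3 libraries together had 20 or more reads. The size rule asked for a 4-fold ratio and an interval lying entirely past 2-fold. Where a library had no read, the rule rested on the interval, and folds used a floor of 3 reads for that library. Such folds leave out counting error in the other library. A pseudocount of 0.5 reads was added for log2 ratios. No p-values were computed. The loci named are the 5 members with most reads per library, the 10 highest and 10 lowest per comparison that met the size rule, ranked on the bound closer to 1, the 5 shortest with 20 reads, the 5 longest runs (ties by more reads), and members with 20 reads in 1 library and 0 in both others. Neighbours are named beside them.

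Software was Python 3.11.15 with pandas 2.3.3, matplotlib 3.10.9, scipy 1.17.1 and numpy 2.4.6. R 4.3.3 with edgeR 4.0.16 gave TMM factors only, and no count test was run. Alternatives were other scalings, read minimum, pseudocount, detection limits and neighbours with a read. Thinning to equal reads outside the top 1% of loci was chosen after seeing the data. The code was tested on simulated data.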

Additional observations from a re-analysis of the deposited data

How the results depend on the processing

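No paired analysis was possible because there is 1 library per genotype and the results come from no test. Rescaling changed the counts between rdr2 and the other libraries. The cause was not tested. Against wild type, members lower and higher in rdr2 went from 209 and 12 to 89 and 35 with TMM factors (median log2 ratio -0.70), 70 and 43 with median-of-ratios size factors (-0.47), and 56 and 50 with reads outside the top 1% (-0.33). For rdr6 against rdr2 the lower and higher members were 39 and 110 (median 0.88), 45 and 87 (0.72), and 52 and 72 (0.51). The shares of all examined loci with each scaling stand beside these counts in the results above. The rdr6 median against wild type was 0.19 with TMM factors and 0.18 with reads outside the top 1%. Cluster_16415 no longer met the size rule in rdr6 with these 2 scalings, at log2 ratios of 4.14 and 4.13. With a minimum of 50 reads, which fewer loci met, 133 were lower in rdr2, and 6 were lower and 3 higher in rdr6 against wild type. For rdr6 against rdr2, 9 were lower and 173 higher (median 2.16). Shares over all loci were not taken at this minimum. The share lower in rdr2 rose and then fell with the count. It was 21.8% at 20 to 49 reads, 42.2% at 50 to under 200 and 36.4% at 200 or more, against 30.8% of all 679. For rdr6 against rdr2, a pseudocount of 1 read gave a median of 1.87. With at least 2 reads required, detection was 9.92% in wild type, against 5.59% in rdr2 and 13.3% in rdr6. Thinning to the smallest total gave 10.3% in rdr2 and 21.1% in rdr6, and thinning to the fewest reads outside the top 1% gave 14.3% in wild type and 14.7% in rdr6. Without the member with most reads, members held 0.745%, 0.333% and 0.896% of locus reads. Only 14.4% of members had a locus with a read within 1 kb. The next scaling checks were chosen after seeing the data. The summed reads of members in rdr2 were 0.919 times those of wild type with TMM factors, and the direction reversed with median-of-ratios size factors (1.07) and reads outside the top 1% (1.19). In rdr6 they were 1.17, 1.22 and 1.16 times those of wild type. The rdr2 median against wild type reversed for 1 to 10 bp (0.12 and 0.27) and 26 to 30 bp loci (0.10 and 0.24) with the last 2 scalings, and for 11 to 14 bp loci (0.064, 0.29 and 0.44) with all 3. For rdr6 against rdr2 it reversed at 1 to 10 bp (-0.72, -0.88 and -1.10), at 11 to 14 bp (-0.10, -0.26 and -0.47) and, with the last 2, at 26 to 30 bp (-0.15 and -0.37). The intervals of all these reversed class medians reach to both sides of no change. Against wild type in rdr2, Cluster_14014 (0.44, 0.67 and 0.81) and Cluster_11544 (0.20, 0.43 and 0.57) reversed with all 3, and for rdr6 against rdr2 Cluster_14014 did with the last (-0.045). The counts of members and the medians over all members did not reverse. Of the main results, taken again under each setting, 17 values stayed within their limits, 42 moved and 2 reversed. Depth limits the rest: detected members had a median of 1 or 2 reads.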
